A study of Mus musculus with 6 samples.

Results

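Gja1, Gja4, Gja5 and Gjc1 encode the connexins of the vessel wall, and their transcripts were followed through the cell types of mouse aorta. The 4 genes were taken as a family and not picked by their values, but earlier results of these data were known when they were chosen. All 4 were present in the matrices, and they are 4 of 27998 genes measured and 4 of 20 connexin genes looked up. Single-cell RNA was captured in droplets from the aortas of C57B/6J mice aged 18 weeks, on a high-fat diet in 3 samples and on a normal (control) diet in 3 samples. Captured transcripts were counted through unique molecular identifiers (UMIs), so that copies of a transcript count as 1, and 58034 cells of 62838 deposited were kept. Total counts ran from 41388034 to 83886418 UMIs per sample, with medians of 3856 to 5955 UMIs per cell. Whether a sample is 1 animal is not stated in the labels, and p-values measure the spread between these samples only.

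Connexins are membrane proteins that assemble into a ring, the connexon, and connexons of neighbouring cells dock to form gap junctions, through which ions and small molecules pass directly from cell to cell. In vessel walls these channels carry electrical and calcium signals along the endothelium, between smooth muscle cells and between both layers. Gja1 encodes Cx43, the most widely expressed vascular connexin. Gja4 encodes Cx37 and Gja5 encodes Cx40, both known from arterial endothelium, and Gjc1 encodes Cx45, known from vascular smooth muscle and needed for vessel formation in the mouse embryo.

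In the GRCm38 build with GENCODE vM21 annotation, Gja1 (ENSMUSG00000050953) lies on chromosome 10 from 56377330 to 56402513 on the plus strand, and Gja5 (ENSMUSG00000057123) on chromosome 3 from 96904693 to 97077416 on the plus strand. Gja4 (ENSMUSG00000050234) lies on chromosome 4 from 127311421 to 127314039 on the minus strand, and Gjc1 (ENSMUSG00000034520) on chromosome 11 from 102799579 to 102819700 on the minus strand. In every annotated coding transcript of Gja1, Gja4 and Gjc1 the protein is encoded by 1 exon, and in those of Gja5 by 1 or 2. The longest coding sequences hold 382 codons in Gja1, 333 in Gja4, 368 in Gja5 and 396 in Gjc1.

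The promoters of Gja5, Gja4 and Gja1 are shown because Gja5 and Gja4 were the connexins of the arterial cells described below and Gja1 that of the capillary cells. They run from 250 bases before to 50 after the RefSeq gene start on GRCm38.p6, read 5′ to 3′ on the strand of the gene, at chr3:97032152-97032451 for Gja5, chr4:127313990-127314289 for Gja4 and chr10:56377050-56377349 for Gja1. The RefSeq start of Gja5 lies inside the longer GENCODE span given above. Capitals mark matches, on either strand, to CACCC (the core bound by Krueppel-like factors, among them the flow-responsive Klf2 and Klf4), TGGGAA (RBPJ, the DNA-binding partner of Notch) or ACAAT (SOX factors).
Gja5: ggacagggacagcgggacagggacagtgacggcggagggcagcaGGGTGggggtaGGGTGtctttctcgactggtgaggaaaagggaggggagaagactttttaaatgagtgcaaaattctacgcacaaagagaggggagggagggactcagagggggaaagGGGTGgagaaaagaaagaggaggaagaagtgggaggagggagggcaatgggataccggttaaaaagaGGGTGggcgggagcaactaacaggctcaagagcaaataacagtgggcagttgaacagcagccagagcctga
Gja4: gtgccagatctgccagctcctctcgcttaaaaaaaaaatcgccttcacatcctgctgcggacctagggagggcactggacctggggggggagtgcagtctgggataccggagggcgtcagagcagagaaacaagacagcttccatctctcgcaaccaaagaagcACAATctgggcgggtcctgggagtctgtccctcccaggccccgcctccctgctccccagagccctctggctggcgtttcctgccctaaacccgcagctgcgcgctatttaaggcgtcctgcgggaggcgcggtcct
Gja1: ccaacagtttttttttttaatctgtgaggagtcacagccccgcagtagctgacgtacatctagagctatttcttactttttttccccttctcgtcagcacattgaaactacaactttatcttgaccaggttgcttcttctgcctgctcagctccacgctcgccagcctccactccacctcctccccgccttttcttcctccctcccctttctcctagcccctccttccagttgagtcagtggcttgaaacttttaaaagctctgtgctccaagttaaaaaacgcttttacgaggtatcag
The Gja5 window held 4 matches to CACCC, all on the opposite strand, starting 206, 195, 88 and 21 bases before the gene start. The Gja4 window held 1 match to ACAAT, 86 bases before the start, and the Gja1 window held none of the 3 motifs. TGGGAA was in none of the 3 windows. No match overlapped another motif. Among 32851 RefSeq promoters of the same length, 57.52% held CACCC at least once and 2.816% at least 4 times, 25.56% held TGGGAA and 31.02% held ACAAT. A match is a description of the letters and not a site, and no promoter was used here for Gjc1.

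Cell types were assigned to each cell by marker genes, none of which is a connexin, so the names mean cells resembling that type and need not match names used by the authors. The gates gave 523 arterial, 1742 capillary and 429 lymphatic endothelial cells among 2919 endothelial cells, 10357 aortic-type and 548 branch-type cells among 12543 smooth muscle cells, and 418 pericytes. Aortic-type cells carried Sost, Npnt and Itga8 and branch-type cells Sncg, Rgs4 and Pln. They also gave 19314 fibroblasts, 750 mesothelial cells, 291 Schwann cells and 6353 macrophages, and 5758 cells (9.92%) had no type. Levels are given as UMIs per 1000000 UMIs of the cell type (CPM), summed per sample. They come from 3′ tags and are not scaled by gene length, so levels of different genes set side by side describe tags counted. Free RNA sets a floor, for which B cells were taken as the measure, and any expression of their own would raise it. Of 5251 B cells, 2350 came from control 2 and 2262 from control 3, so the floor of the high-fat diet samples is less well known. B cells of all samples together had 3.17 CPM of Gja1, 2.13 of Gja4, 0.749 of Gja5 and 2.53 of Gjc1. Single samples with few B cells went higher, to 9.81 CPM of Gja4 from 1 UMI in the 23 B cells of control 1 and 12.4 CPM of Gjc1 from 3 UMIs in the 47 of high-fat diet 2.

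Several libraries stood apart in some cell types. Control 1 supplied nearly all cells of several clusters, among them an aortic-type smooth muscle cluster in which 1315 of 1329 cells were its own. Control 3 joined 634 barcodes of one well with 7986 of the other. No well pair of different samples shared more than 1.577% of the smaller barcode list. The results that change without a library are given with and without it.

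**Figure D1:**
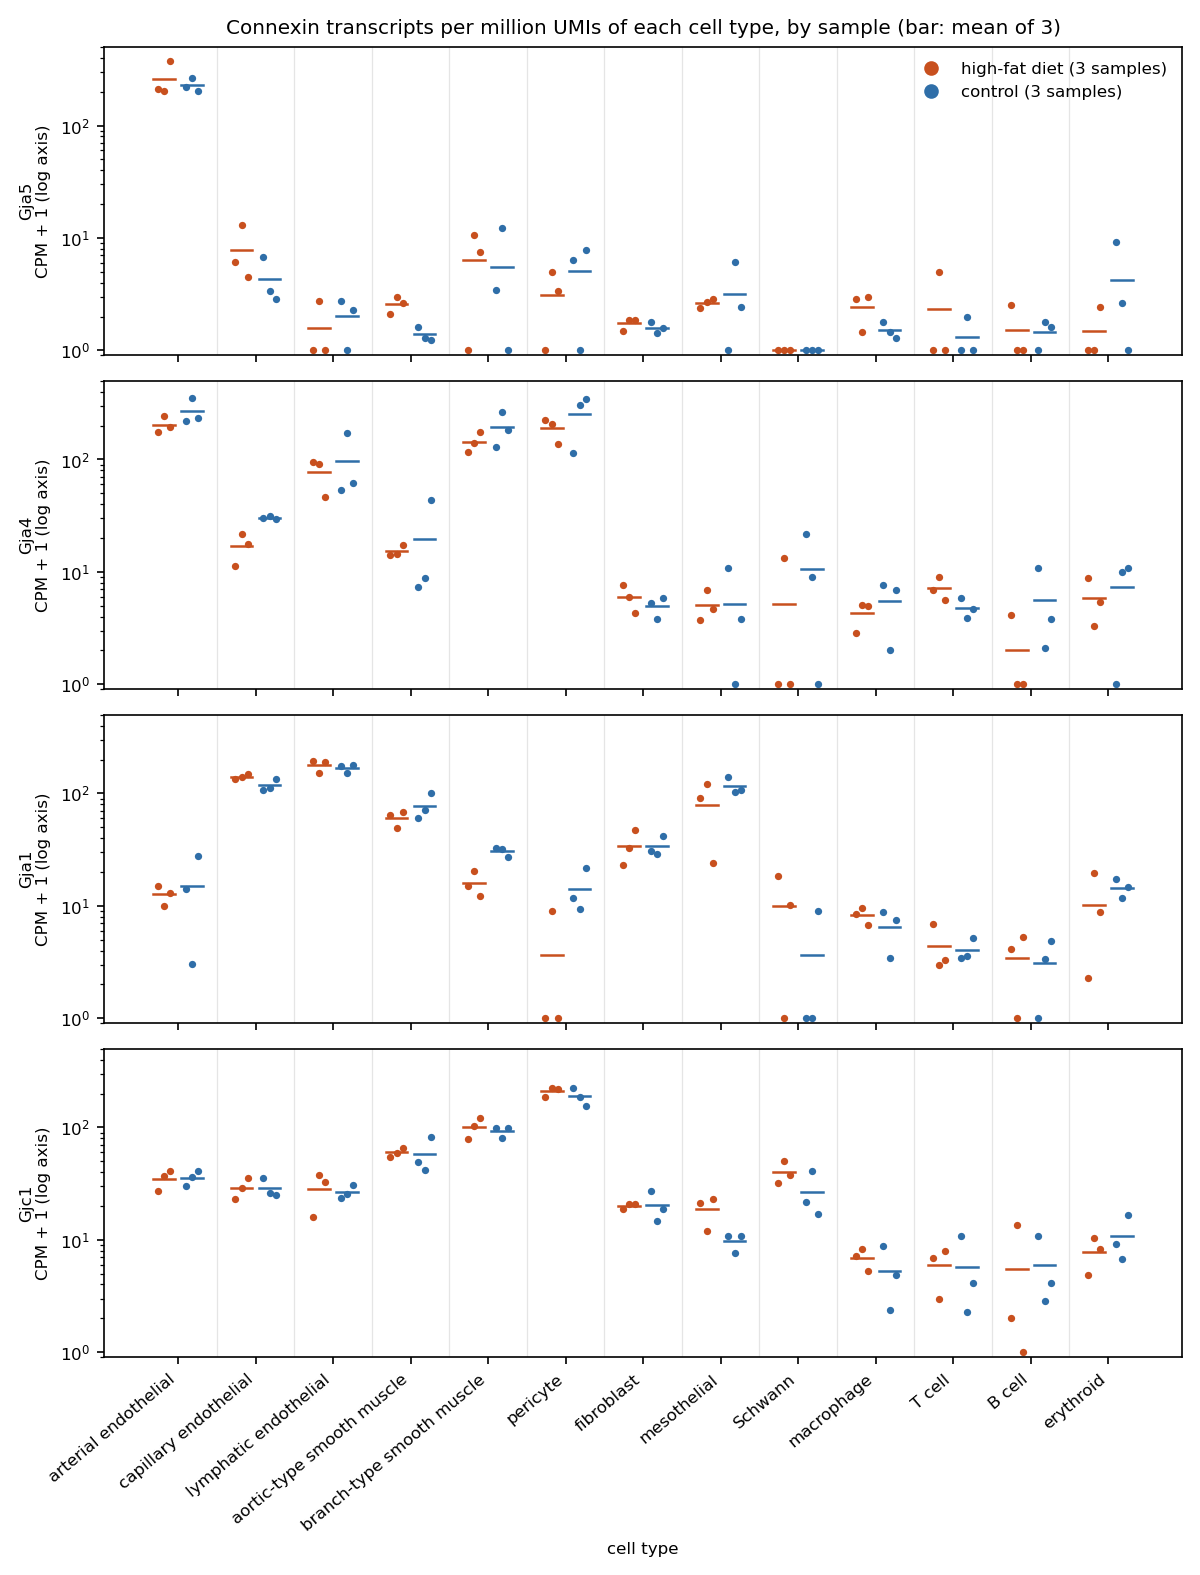
Level of Gja5, Gja4, Gja1 and Gjc1 (CPM + 1, log axis) in 13 cell types; each point is 1 sample (high-fat diet left in each column, control right) and each bar the mean of 3. Gja5 stands high in the arterial column alone, with 200.2 to 372.9 CPM, while Gja4 is also high in branch-type smooth muscle and pericytes, Gja1 in capillary and lymphatic endothelium and Gjc1 in pericytes.

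Gja5 was the most restricted member. Arterial endothelial cells held 209.3, 201.2 and 372.9 CPM in high-fat diet 1, 2 and 3, against 217.7, 261.7 and 200.2 CPM in control 1, 2 and 3. High-fat diet 3 was the highest and the diets overlapped. The mean over the 6 samples was 243.8 ± 67.2 CPM (SD), and the next of the 13 types with at least 20 cells in every sample (those described above, T cells, B cells and erythroid cells included), capillary endothelium, had 5.10 ± 3.70 CPM. Branch-type smooth muscle had 4.96 ± 4.88 CPM and pericytes 3.10 ± 2.81 CPM, and no other of the 13 types reached 2 CPM on average. Cardiomyocytes, which had enough cells in 3 samples only and were not ranked, had 6.43 CPM in high-fat diet 1, against 7.86 and 9.42 CPM in control 2 and 3, and 9.12 CPM over all samples from 6 UMIs. Below the arterial cells the neighbours in the order of the 13 types did not differ beyond their spread. The arterial level was higher than the capillary one in 6 of 6 samples, with an exact two-sided sign-flip p of 0.03125, the smallest 6 samples allow, and 0.1875 after Benjamini-Hochberg adjustment over the 48 neighbour comparisons of the 4 genes. No neighbour comparison of any member went below that adjusted value.

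Gja4 was shared by arterial endothelium, pericytes and branch-type smooth muscle. In arterial endothelial cells it had 175.4, 241.9 and 192.4 CPM in high-fat diet 1, 2 and 3, against 217.7, 348.3 and 233.5 CPM in control 1, 2 and 3. In pericytes it had 224.3, 204.4 and 137.2 CPM on the high-fat diet, against 112.4, 302.9 and 345.0 CPM in controls. Both types spread widely and overlapped between diets. Over the 6 samples the means were 234.9 ± 60.9 CPM in arterial cells, 221.0 ± 90.8 CPM in pericytes and 167.4 ± 54.5 CPM in branch-type smooth muscle. Arterial cells and pericytes did not differ beyond their spread (exact sign-flip p = 0.5, n = 6 samples). Nor did pericytes and branch-type cells (exact sign-flip p = 0.1875, n = 6 samples). Arterial and branch-type cells were not tested against each other. Branch-type cells stood above lymphatic endothelium (85.7 ± 46.8 CPM), and lymphatic above capillary endothelium (22.6 ± 8.10 CPM), in 6 of 6 samples each. Capillary endothelium and aortic-type smooth muscle (16.6 ± 13.2 CPM) did not differ beyond their spread.

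Gja1 was high in lymphatic and capillary endothelium and low in arterial endothelium. Lymphatic endothelial cells held 194.9, 150.8 and 188.4 CPM in high-fat diet 1, 2 and 3, against 173.4, 152.6 and 179.0 CPM in controls. Capillary cells held 132.2, 139.8 and 146.4 CPM on the high-fat diet, against 107.0, 111.1 and 132.1 CPM in controls. Lymphatic cells were the higher of both in 6 of 6 samples. The 6-sample means were 173.2 ± 18.2 CPM in lymphatic, 128.1 ± 15.8 CPM in capillary and 12.8 ± 8.05 CPM in arterial endothelium. Outside the endothelium Gja1 reached 96.3 ± 39.5 CPM in mesothelial cells, 68.2 ± 17.5 CPM in aortic-type smooth muscle, 33.1 ± 8.81 CPM in fibroblasts and 22.2 ± 8.67 CPM in branch-type smooth muscle. Neither the capillary and mesothelial nor the mesothelial and aortic-type levels differed beyond their spread. Aortic-type cells were above fibroblasts in 6 of 6 samples. Perineurial cells, the sheath of small nerves, were too few for values per sample; all 57 together had 141.7 CPM of Gja1 from 44 UMIs.

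Gjc1 was highest in pericytes and smooth muscle. Pericytes had 184.2, 224.5 and 216.6 CPM in high-fat diet 1, 2 and 3, against 224.7, 185.1 and 153.7 CPM in control 1, 2 and 3. Branch-type smooth muscle had 77.2, 102.6 and 119.1 CPM on the high-fat diet, against 97.2, 78.7 and 98.4 CPM in controls. The diets overlapped in both types. Means ran from 198.1 ± 28.6 CPM in pericytes through 95.6 ± 15.7 CPM in branch-type and 57.8 ± 14.05 CPM in aortic-type smooth muscle to 34.4 ± 5.71 CPM in arterial endothelium, each above the next in 6 of 6 samples. Schwann cells had 32.2 ± 12.5 CPM, capillary endothelium 27.9 ± 5.35 CPM and lymphatic endothelium 26.6 ± 7.56 CPM. From arterial endothelium down to lymphatic endothelium no type differed from the next beyond its spread. Arterial and lymphatic endothelium were not tested against each other. Fibroblasts had 19.2 ± 4.12 CPM.

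**Figure D2:**
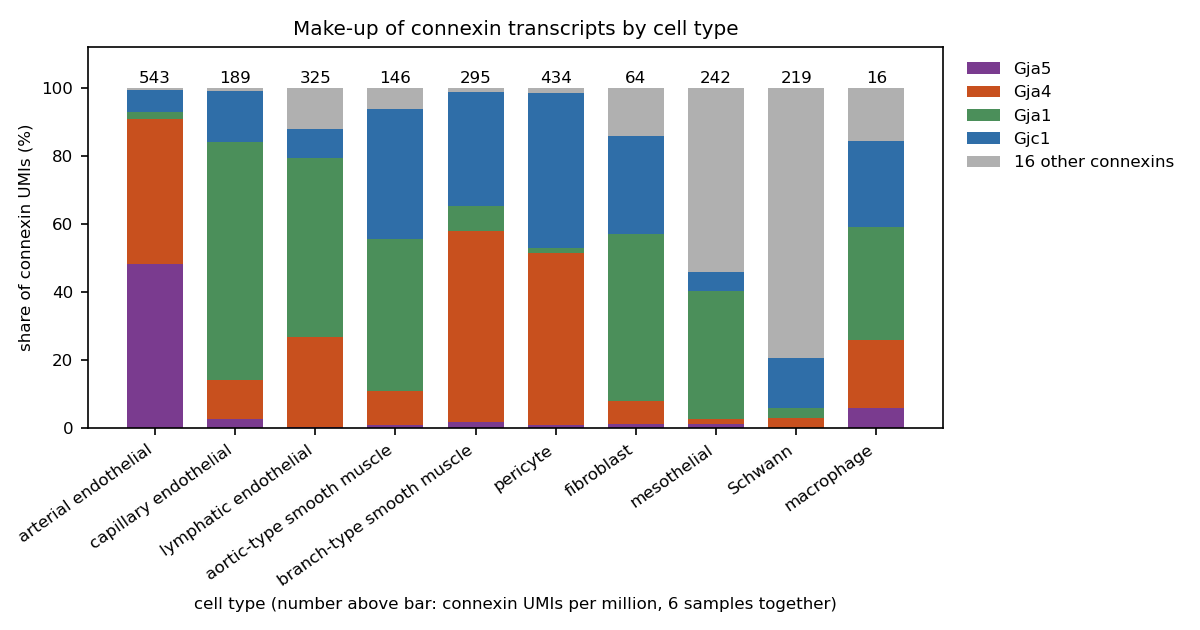
Share of connexin UMIs (%) contributed by each member and by the 16 other connexin genes in each cell type with at least 200 connexin UMIs, all 6 samples together; the number above a bar is the summed connexin level in CPM. Gja5 and Gja4 fill most of the arterial bar, Gja1 most of the capillary bar, and other connexins lead in mesothelial and Schwann cells.

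Summed over the 20 connexin genes, arterial endothelium carried the most connexin transcripts, 530.1 ± 85.7 CPM (SD, n = 6), ahead of pericytes with 436.0 ± 71.0 CPM. Lymphatic endothelium had 327.0 ± 37.3 CPM, branch-type smooth muscle 294.1 ± 60.4 CPM, capillary endothelium 186.0 ± 14.2 CPM and aortic-type smooth muscle 152.4 ± 40.5 CPM. Of arterial connexin UMIs 48.1% were Gja5, 42.6% Gja4, 6.40% Gjc1 and 2.18% Gja1. In capillary cells 70.0% were Gja1. Pericytes divided theirs between Gja4 (50.6%) and Gjc1 (45.6%), and branch-type smooth muscle likewise between Gja4 (56.5%) and Gjc1 (33.3%). Aortic-type smooth muscle held 44.8% Gja1 and 38.3% Gjc1, with 9.96% Gja4.

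The other connexins had few UMIs in endothelium and mural cells, with exceptions in single types. Gja6, an X-linked relative of Gja1 in rodents, had 7.02 ± 1.67 CPM in aortic-type smooth muscle. Gjb5 had 109.4 ± 32.2 CPM in mesothelial cells, where other connexins made up 54.3% of connexin UMIs. In Schwann cells other connexins made up 79.6%, from Gjc3 (156.9 ± 75.0 CPM) and from Gjb1 (27.8 ± 12.8 CPM), the connexin of peripheral myelin. Gja10 and Gjd4 had no UMI. Panx1, the most widely expressed pannexin (a separate family of membrane channels), averaged 5.55 ± 6.13 CPM in arterial endothelium.

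The endothelial types were then compared within samples, by edgeR's quasi-likelihood test on summed counts with the sample as a block and adjusted p-values over all genes tested (called below 0.05). Between arterial and capillary endothelium, 33.7% of 9095 genes passed in either direction, and 3 of the 4 connexins did. Gja5 was higher in arterial cells by 5.60 on the log2 scale (SE 0.27, adjusted p = 5.6e-10) and Gja4 by 3.41 (SE 0.14, adjusted p = 2.0e-15). Gja1 was lower in arterial cells, with a log2 fold change of -3.43 (SE 0.22, adjusted p = 9.9e-12). For Gjc1 the difference was 0.32 (SE 0.19, adjusted p = 0.22) and did not pass, and with cells assigned by cluster it was -0.39. Capillary markers summed to 1557 to 2139 CPM in arterial cells on the high-fat diet and 966 to 3146 CPM in controls, against 22939 to 48445 CPM in capillary cells over all samples.

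**Figure D3:**
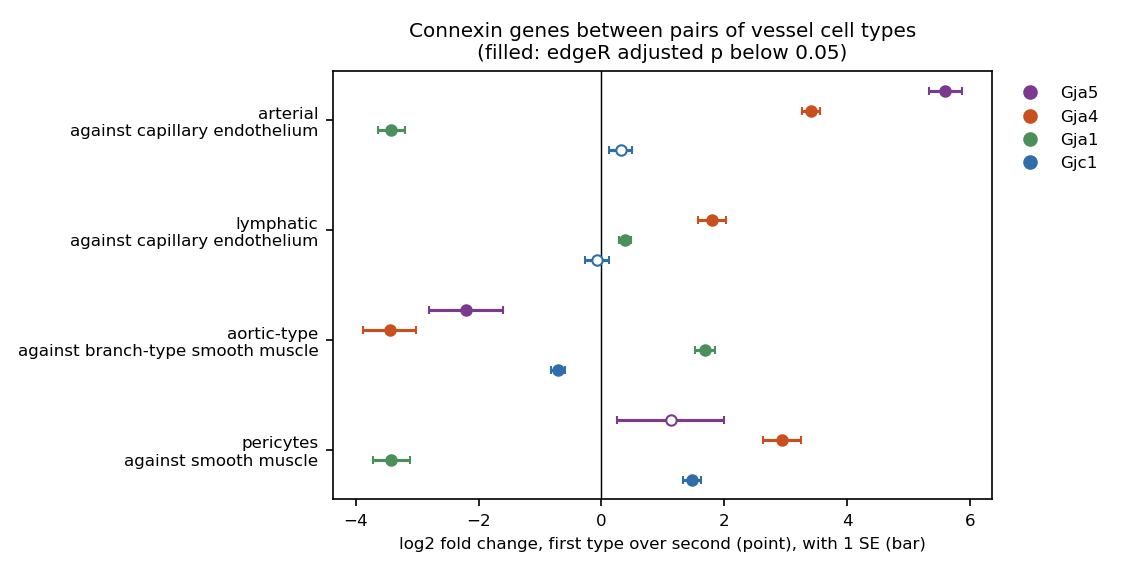
Log2 fold change between pairs of vessel cell types (first type over second) for the 4 connexins, with 1 SE; filled points have an edgeR adjusted p below 0.05. Gja4 and Gja1 lie on opposite sides of 0 in arterial against capillary endothelium, in aortic-type against branch-type smooth muscle and in pericytes against smooth muscle, while both are above 0 in lymphatic against capillary endothelium.

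Other junction and arterial genes did not all move with Gja5 and Gja4. Of 11 tested gap junction partners, proteins that bind, traffic or phosphorylate connexins, 1 was higher in arterial cells and 4 were lower, with a median log2 fold change of 0.04 against 0.01 over all genes. The highest-expressed partners were Cav1, the caveolar scaffold (-0.47, adjusted p = 4.1e-05), Nedd4, a ubiquitin ligase (0.34, adjusted p = 0.0096) and Ctnnb1, beta-catenin (0.04, adjusted p = 0.79). Of 9 adherens and tight junction genes 2 were higher and 4 lower, with a median of -0.33. Pecam1 was higher, at 2213 ± 461 CPM in arterial and 779 ± 99.4 CPM in capillary cells (SD, n = 6; adjusted p = 5.6e-13 in edgeR), while Cdh5, VE-cadherin, had a log2 fold change of -1.23 (adjusted p = 6.7e-11). Cldn5, the endothelial claudin, had -0.33 (adjusted p = 0.24). Of 16 genes of the arterial program and flow response 5 were higher and 5 lower, with a median of -0.04; Hey1, Sox17 and Efnb2 of that list also served as arterial gate markers, and Pecam1, Cdh5, Cldn5 and Esam as endothelial ones. Klf2, a flow-induced transcription factor, had -0.08 (adjusted p = 0.61), Nrp1, a co-receptor for VEGF, -0.61 (adjusted p = 5.3e-06) and Eng, a TGF-beta co-receptor, 0.24 (adjusted p = 0.59). No other connexin or pannexin passed the filter on low counts in this pair.

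Lymphatic against capillary endothelium, a comparison added after the values were seen, gave 38.9% of 9115 genes called and 2 of the 3 tested connexins. Gja4 was higher in lymphatic cells by 1.80 (SE 0.23, adjusted p = 5.6e-06) and Gja1 by 0.38 (SE 0.10, adjusted p = 0.0028). Gjc1 had a log2 fold change of -0.08 (SE 0.19, adjusted p = 0.82), and Gja5 was under the filter. Of 16 arterial and flow genes 15 were tested; 3 were higher and 9 lower, with a median of -0.79 against -0.01 over all genes. Among 11 tested partners 2 were higher and 3 lower, and among 8 tested adherens and tight junction genes 1 was higher and 6 were lower.

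Endothelial cells with Vwf but without arterial markers numbered 38, with 2 to 12 per sample, and were not tested. The arterial markers Eln, Ltbp4, Fbln5 and Cytl1 were not used to keep cells out of this group. Of the 38 cells, 29 fell in the cluster named arterial endothelial. Together the 38 cells had 50.6 CPM of Gja4 from 7 UMIs, and 14.5 CPM each of Gja1, Gja5 and Gjc1 from 2 UMIs each.

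Both smooth muscle types carried Gjc1, and they differed in the balance of Gja1 and Gja4. In aortic-type cells Gja1 had 63.8, 48.5 and 67.2 CPM in high-fat diet 1, 2 and 3, against 59.4, 69.9 and 100.4 CPM in control 1, 2 and 3. In branch-type cells it had 14.04, 19.24 and 11.27 CPM on the high-fat diet, against 31.6, 30.9 and 26.3 CPM in controls. Aortic-type cells were higher in every sample. Between aortic-type and branch-type cells 17.8% of 13171 genes were called, and all 4 connexins passed. Gja1 was higher in aortic-type cells by 1.69 (SE 0.17, adjusted p = 1.3e-13). Gja4 had a log2 fold change of -3.45 (SE 0.43, adjusted p = 0.0035) and Gjc1 of -0.71 (SE 0.12, adjusted p = 8.6e-07), both lower in aortic-type cells. Gja5 had -2.20 (SE 0.60, adjusted p = 0.0041) from few UMIs, and its call was lost without control 2 (-1.70, adjusted p = 0.065) and with a mitochondrial limit of 10% (-0.47, adjusted p = 0.87). Gja6 was higher in aortic-type cells by 1.71 (SE 0.49, adjusted p = 0.0067), and Panx1 did not differ past the threshold (0.26, adjusted p = 0.90).

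In the same pair 6 of 13 tested gap junction partners were higher in aortic-type cells and 0 lower, with a median of 0.29 against 0.04 over all genes. They included Nov, a secreted protein that binds Cx43 (1.23, adjusted p = 0.0027), and Nedd4 (0.38, adjusted p = 6.2e-05), while Cav1 had 0.04 (adjusted p = 0.84). Of 8 tested adherens and tight junction genes 2 were higher and 2 lower, and of 16 arterial and flow genes 4 were higher and 3 lower. Hey2, a Notch target of arterial cells, had -0.51 (adjusted p = 0.0015).

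Pericytes differed from all smooth muscle cells in 3 of the 4 connexins, in a comparison where 29.2% of 13641 genes were called. Gja4 was higher in pericytes by 2.94 (SE 0.31, adjusted p = 0.00041) and Gjc1 by 1.48 (SE 0.14, adjusted p = 1.4e-15). Gja1 had a log2 fold change of -3.42 (SE 0.31, adjusted p = 9.2e-18). Gja5 had 1.13 (SE 0.87, adjusted p = 0.38) and did not pass. Of the smooth muscle cells in this comparison, 10357 of 12543 were aortic-type. Branch-type cells alone averaged 167.4 CPM of Gja4 against 221.0 CPM in pericytes, which were higher in 4 of 6 samples (exact sign-flip p = 0.1875). The Gja4 difference is thus one from mostly aortic-type cells. In the pericyte gate capillary markers summed to 5631 to 7330 CPM on the high-fat diet and 2756 to 17260 CPM in controls, and smooth muscle markers to 6697 to 11020 CPM and 3119 to 7389 CPM. Capillary endothelium itself averaged 22.6 CPM of Gja4 and 27.9 CPM of Gjc1, below the pericyte level of both genes. The arterial and flow list had 10 of 16 genes higher in pericytes and 2 lower, with a median of 1.40 against -0.08 over all genes, and the adherens and tight junction list 3 of 8 higher and 1 lower. Among these were Cdh5 (2.96, adjusted p = 0.0022) and Esam (3.14, adjusted p = 1.6e-49), which are also markers of the endothelial gate; the part of the capillary markers in these values was not tested. Of 13 tested partners 2 were higher and 4 lower, and Gja6 was lower in pericytes (adjusted p = 9.0e-05).

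The share of cells with a UMI of a connexin was read at a fixed depth. With each cell thinned to 1000 UMIs, 20.7% ± 5.28 of arterial cells had a Gja5 UMI and 19.0% ± 6.77 a Gja4 UMI (SD, n = 6 samples), at a median depth of 4255 UMIs before thinning. Without thinning the shares were 49.6% and 54.1%. In B cells, with a median of 2508 UMIs, the thinned shares were 0.05996% for Gja5 and 0.188% for Gja4. Gja1 was seen in 12.2% ± 1.09 of capillary cells and 17.8% ± 5.33 of lymphatic cells, against 0.310% of B cells; without thinning it was 33.6% and 60.8%. Of pericytes, 21.8% ± 7.22 had a Gja4 UMI and 19.0% ± 3.84 a Gjc1 UMI (47.1% and 49.8% without thinning), and of branch-type smooth muscle cells 14.3% ± 5.75 had a Gja4 UMI (50.9% without thinning). Gjc1 stood at 0.819% in B cells on average, and at 4.35% in control 1, which had only 23 of them.

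Gja4 and Gja5 were detected together in some arterial cells. Of 523 thinned cells, 22 had both, 72 Gja4 only, 91 Gja5 only and 338 neither. Gja5 was thus seen in 23.4% of cells with Gja4 and in 21.2% of cells without it. At 2000 UMIs 491 cells remained, 63 with both, 97 with Gja4 only, 100 with Gja5 only and 231 with neither, and the shares were 39.4% and 30.2%. Detection is sparse, so these counts describe UMIs and not which cells express both genes. By the same count at 1000 UMIs, Gjc1 was seen in 18.0% of pericytes with Gja4 and 19.1% of those without.

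**Figure D4:**
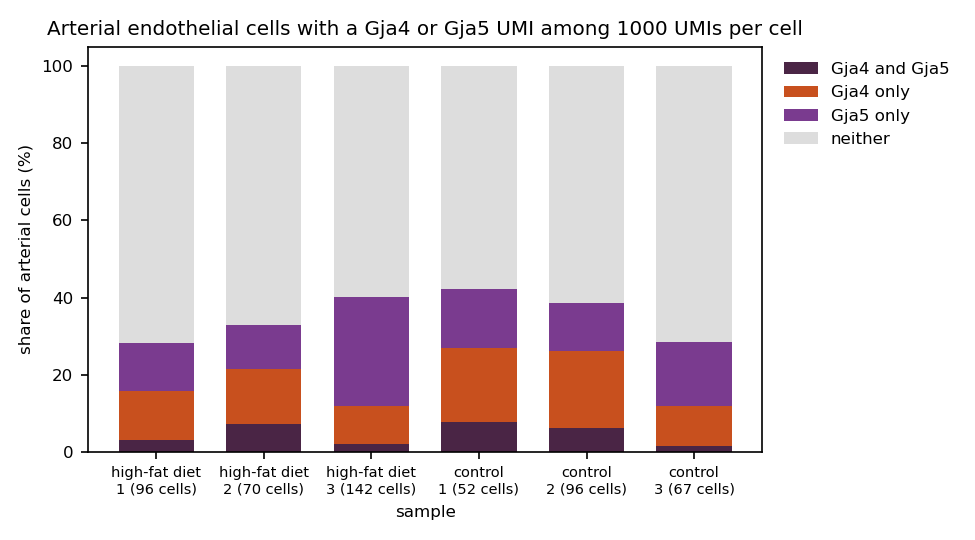
Share of arterial endothelial cells (%) with a UMI of Gja4, of Gja5, of both or of neither among 1000 UMIs per cell, by sample (3 high-fat diet left, 3 control right; cells per sample under each bar). Cells with neither make up the largest segment in every sample, and high-fat diet 3 has the most cells with Gja5 only, 40 of 142.

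Diet was compared within each type, fitted alone, over 3 high-fat diet and 3 control samples. Of 48 tests of 4 connexins in 12 types, 35 could be run and 13 fell under the filter on low counts. In these edgeR tests 0 were called, 5 had an unadjusted p below 0.05, and the lowest adjusted p was 0.16, or 0.071 under any alternative. DESeq2 called none of them either. On simulated counts the edgeR test recovered 29% of 2-fold changes in arterial cells, 47% in pericytes, 65% in smooth muscle and 67% in capillary endothelium. The changed genes in these simulations had at least 20 CPM. A missing call is therefore not evidence of no change. The simulated sets also gave 15, 6, 16 and 26 false calls in the same order. Few genes of any kind passed: 0.556% of all genes in endothelial cells together, 0.066% in arterial, 0.354% in capillary and 0.579% in lymphatic endothelium, 0% in smooth muscle together and in its aortic-type cells, 0.148% in branch-type cells, 0.303% in pericytes, 0.0578% in fibroblasts, 0.154% in mesothelial cells, 0.263% in Schwann cells and 0% in macrophages. The 4 genes called in arterial cells, named after their values were seen, were Rbm3, Hspb1, Hspa8 and Alyref.

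**Figure D5:**
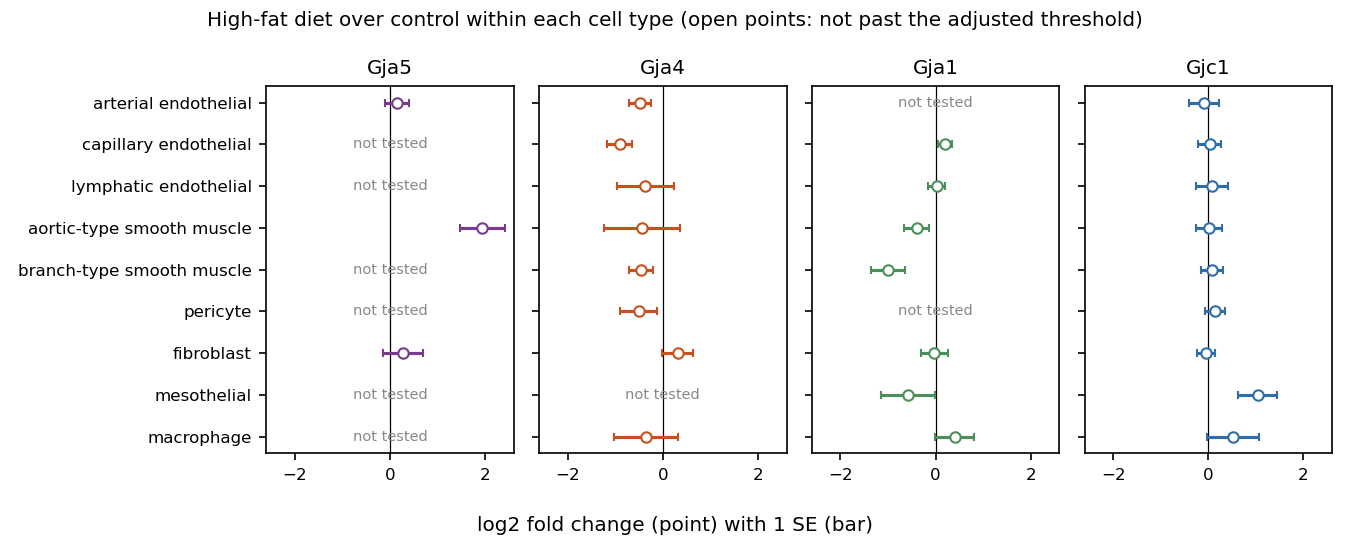
Log2 fold change of high-fat diet over control (point) with 1 SE (bar) for each connexin in 9 of the 12 cell types tested; every point is open because none passed an adjusted p of 0.05, and entries under the filter are marked as not tested. Gja4 lies left of 0 in every type shown where it was tested except fibroblasts, and Gja5 in aortic-type smooth muscle lies farthest right, at 1.94.

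Gja4 in capillary endothelium was the connexin nearest to the threshold. It had 10.2, 20.8 and 16.8 CPM in high-fat diet 1, 2 and 3, against 28.9, 30.7 and 28.3 CPM in control 1, 2 and 3. Every high-fat diet sample was below every control. Full separation of 3 against 3 samples has an exact two-sided permutation p of 0.1, and its share over all genes was not counted. The same limit holds for the other separations between diets given below. The log2 fold change was -0.91 (SE 0.27, unadjusted p = 0.0050, adjusted p = 0.16), and it ran from -1.10 to -0.70 over the alternatives. Single wells overlapped, with 8.55 to 22.3 CPM in wells of high-fat diet samples and 6.90 to 68.6 CPM in wells of controls. At 1000 UMIs per cell the share of capillary cells with a Gja4 UMI was 1.69% ± 0.32 on the high-fat diet and 2.32% ± 0.72 in controls (exact two-sided permutation p = 0.3, n = 3 each, where 0.1 is the smallest possible). At 2000 UMIs, which kept 883 of 1110 high-fat diet and 573 of 632 control cells, it was 2.87% ± 0.70 on the high-fat diet and 5.08% ± 0.76 in controls (exact permutation p = 0.1). Without thinning it was 5.15% ± 1.92 and 8.53% ± 1.53 in the same order (exact permutation p = 0.2). Arterial markers in the capillary gate summed to 1100 to 1209 CPM on the high-fat diet and 850 to 1708 CPM in controls. Lymphatic markers summed to 118 to 142 CPM on the high-fat diet and 114 to 1934 CPM in controls. Pericyte markers summed to 334 to 493 CPM and 427 to 497 CPM in the same order. The part of these 3 marker sets in the difference was not tested. Gja1 in the same cells also did not overlap, higher on the high-fat diet by the levels given above, but its log2 fold change was 0.20 (SE 0.15, adjusted p = 0.58). The share of capillary cells with a Gja1 UMI was 12.4% ± 0.50 on the high-fat diet and 12.1% ± 1.62 in controls at 1000 UMIs (exact permutation p = 0.9, n = 3 each). It was 22.3% ± 0.42 on the high-fat diet and 18.2% ± 0.72 in controls at 2000 UMIs (exact permutation p = 0.1). Without thinning it was 32.4% ± 1.58 on the high-fat diet and 34.8% ± 1.32 in controls (exact permutation p = 0.2), in cells whose median depth was lower in every high-fat diet sample than in every control.

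Gja4 had a negative log2 fold change in 9 of the 10 types or type groups where it was tested, from -0.91 to 0.32, but these come from the same 6 samples and some contain each other. In arterial endothelium it was -0.48 (SE 0.23, adjusted p = 0.69), in branch-type smooth muscle -0.46 (SE 0.26, adjusted p = 0.66) and in pericytes -0.50 (SE 0.39, adjusted p = 0.78). None passed, and 1 control decided the sign in several: without control 2 the value was 0.12 in all endothelial and 0.35 in lymphatic cells.

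In aortic-type smooth muscle Gja4 rested on control 3. It had 13.2, 13.3 and 16.5 CPM in high-fat diet 1, 2 and 3, against 6.27, 7.79 and 42.3 CPM in control 1, 2 and 3. Control 3 was above every other sample and the other controls were below them all. The log2 fold change was -0.44 (SE 0.79, adjusted p = 0.88) and 1.06 without control 3. The same sample had the highest sum of the 8 pericyte markers in its aortic-type cells, 3912 CPM, against 519 to 1465 CPM in high-fat diet samples and 557 and 566 CPM in the other controls; the part of these markers in the Gja4 level was not tested. It had 51.3 and 41.6 CPM of Gja4 in its 2 wells, and 40.2 CPM without a cluster of mixed cells.

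Gja5 in aortic-type smooth muscle was low in every sample. It had 1.11, 1.99 and 1.64 CPM in high-fat diet 1, 2 and 3, from 15, 31 and 17 UMIs, against 0.620, 0.300 and 0.249 CPM in control 1, 2 and 3, from 9, 4 and 2 UMIs. All high-fat diet samples were above all controls. B cells of all samples together had 0.749 CPM, above every control value here, and B cells of single samples reached up to 1.55 CPM. The log2 fold change was 1.94 (SE 0.47, unadjusted p = 0.0035, adjusted p = 0.42), beside 0% of all genes called. Endothelial markers in these cells summed to 124 to 202 CPM on the high-fat diet and 97.9 to 193 CPM in controls, and capillary markers to 572 to 865 CPM and 229 to 498 CPM, the last without overlap; their part was not tested. The share of cells with a Gja5 UMI depended on the depth read. At 1000 UMIs per cell it was 0.111% ± 0.107 on the high-fat diet and 0.0986% ± 0.125 in controls (exact permutation p = 1, n = 3 each), beside 0.05996% of B cells. At 2000 UMIs it was 0.362% ± 0.066 on the high-fat diet and 0.156% ± 0.037 in controls (exact permutation p = 0.1, the smallest possible), beside 0.0082% of B cells. Without thinning it was 0.9996% ± 0.334 on the high-fat diet and 0.312% ± 0.198 in controls (exact permutation p = 0.1), beside 0.142% of B cells.

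Other differences by diet were small or rested on few UMIs. Gja1 in branch-type smooth muscle did not overlap between diets by the levels given above, with 6, 12 and 7 UMIs on the high-fat diet and 13, 11 and 23 in controls (log2 fold change -1.001, SE 0.36, adjusted p = 0.50). Gja1 in pericytes, under the filter, had 0, 8.02 and 0 CPM on the high-fat diet, against 10.7, 8.41 and 20.5 CPM in controls, and the counts of 0 allow up to 12.02 CPM in high-fat diet 1 and 7.22 CPM in high-fat diet 3. Gjc1 in mesothelial cells had 20.4, 11.04 and 22.1 CPM on the high-fat diet, against 9.85, 6.58 and 9.90 CPM in controls (log2 fold change 1.04, SE 0.41, adjusted p = 0.43). Of the 35 tests 21 gave a change smaller than its SE, among them Gjc1 in all 3 endothelial and both smooth muscle types. Of the lists of other connexins, pannexins, partners, junction genes and arterial and flow genes, 1 gene was called for diet in any type, Klf2 in lymphatic endothelium (log2 fold change 0.89, adjusted p = 0.018).

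Whether the diet effect itself differed between subtypes was tested by an interaction term. Between arterial and capillary endothelium 0% of 9095 genes passed in edgeR (499 with an unadjusted p below 0.05), and 0 of 4 connexins. Gja4 differed by 0.48 (SE 0.28, adjusted p = 0.93) and Gja5 by -0.88 (SE 0.72, adjusted p = 0.96). Between aortic-type and branch-type smooth muscle 0.00759% passed, which is 1 gene, Cdkn1a, named after its value was seen, and 0 of 4 connexins. Gja4 differed by 0.30 (SE 0.90, adjusted p = 1). Without control 3 it differed by 1.42 with an adjusted p of 7.6e-05, and without control 2 by -0.41.

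Fibroblasts carried Gja1 and Gjc1 at low levels, and Gja1 is given for subsets chosen after values were seen, with no test between them. Ccl11 Penk fibroblasts had 48.9 ± 10.2 CPM of Gja1 (SD, n = 6), Pi16 Cd248 fibroblasts 29.9 ± 6.65 CPM, Spon2 Col23a1 fibroblasts 19.6 ± 6.91 CPM and Mmp3 Meox1 Ccl19 fibroblasts 15.9 ± 4.10 CPM. Thbs4 Cilp Angptl1 fibroblasts, with too few cells in control 3, had 56.2 ± 18.5 CPM in the other 5 samples. Gjc1 lay between 17.8 and 30.3 CPM in all 5 subsets.

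Genes with the most similar pattern over the 13 cell types were ranked by Pearson's r of mean log2(CPM + 1) among 9849 genes that reached 20 CPM in one type, as a description with no test. For Gja5 they were Ocln (r = 0.959), which encodes the tight junction protein occludin, then Plek2, Selp (P-selectin), Nkx2-3 and Gkn3, the last a marker of the arterial gate. For Gja4 they were Igf2 (0.955), Tinagl1, Epas1 (HIF-2 alpha), Amigo2 and Dock6. For Gja1 they were Bambi (0.876), Tbc1d16, Spats2l, Zfp423 and Unc5b, and for Gjc1 Sgip1 (0.937), Gnb4, Mfge8, Vcl (vinculin) and Adcy6 (an adenylyl cyclase). Ocln was at 26.7 CPM in arterial endothelium and 0.577 CPM in the next of the 13 types, capillary endothelium. It was picked by its pattern in these same counts, so no test between these types is given. Outside the 13 types, all perineurial cells together had 35.4 CPM of Ocln from 11 UMIs, and epithelial cells 12.6 CPM from 19 UMIs.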

How the data were processed

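Single-cell libraries of aorta were made, per the labels' protocols, from collagenase-digested, strained and red-cell-lysed suspensions with the 10x 3′ version 2 kit. Reads were counted with Cell Ranger 3.0 on mm10, per the submitters' processing notes; annotation and cell calling are not given in the sources used here. The deposited files hold raw UMI counts per gene and cell, with lists of genes and of cell barcodes whose suffixes show 2 wells per sample. No value was normalized by the authors in these files.

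Cells with under 300 genes or 20% or more mitochondrial counts were left out (59413 kept), as were 1379 doublets (2.32%; Scrublet in scanpy 1.11.5, score above 0.25). Cells were typed by per-cell marker scores (at least 3 markers, score at least 0.25, lead 0.1 over the next type), and by Leiden clusters (35) made without connexin genes as an alternative. Of pericytes, 12.9% lay just inside the gate, and of endothelial and smooth muscle cells 5.79% and 1.79%. Counts were summed per sample and type, with at least 20 cells in every sample required for a test, and tested with edgeR 4.0.16 (quasi-likelihood, robust, TMM, default filter), Benjamini-Hochberg over all genes tested, at 0.05. Shares used exact permutation and sign-flip tests. CPM here is the gene's share of all UMIs of the type, scaled to 1000000; means carry the SD over samples. Intervals and limits from counts cover counting error only (a count of 0 is read as up to 3). The tests were tested on simulated counts.

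Named genes were the 4 connexins in every type, up to 3 list members with the highest level in the type described, and the 5 genes most alike in pattern. The connexins, lists, markers and tests were chosen with earlier results of these data known. Alternatives were DESeq2 1.42.0, its size factors in edgeR, no filter, doublets kept, a mitochondrial limit of 10%, a stricter gate, clusters, single samples left out, a block for the replicate number, and thinning to 2000 UMIs or none. The lymphatic comparison, fibroblast subsets and aortic-type cells without a mixed cluster were added after seeing the data. The result of a gene on the lists is not reported here. Promoters came from RefSeq (3 of 4 genes matched) and coordinates from GENCODE vM21. Other software was R 4.3.3, Python 3.11.15, numpy 2.4.6, pandas 2.3.3, scipy 1.17.1 and matplotlib 3.10.9.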

Additional observations from a re-analysis of the deposited data

How the results depend on the processing

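No connexin was called for diet in any type under any alternative, the replicate block included. The 3 connexins called in arterial against capillary endothelium and in pericytes against smooth muscle passed under every alternative run, and 3 or 4 did in aortic-type against branch-type smooth muscle, 2 or 3 in lymphatic against capillary endothelium. Of 456 log2 fold changes recomputed, 444 kept direction and side of the threshold. Apart from some Gja4 diet results, this count leaves out changes that were smaller than their SE with all samples. Most of the 21 diet tests of that size are therefore not in it. Leaving out a sample, Gja4 for diet ran from -0.66 to 0.12 in endothelial, -0.65 to 0.35 in lymphatic, -0.90 to 0.75 in smooth muscle and -0.89 to 1.06 in aortic-type cells, and Gja5 for the diet difference between smooth muscle subtypes from -0.65 to 2.18. Without control 2, Gja4 for diet was 0.12 in endothelial and 0.35 in lymphatic cells, and its difference between aortic-type and branch-type smooth muscle was -0.41. Without control 3 it was 0.75 in smooth muscle and 1.06 in aortic-type cells, and that difference 1.42, so that 0 to 1 connexins were called for a diet effect between subtypes. With the replicate block Gja4 in aortic-type cells was 0.14. Gja5 for that difference was -0.87 with the stricter gate and -0.65 without control 2. Gjc1 in arterial against capillary cells was -0.39 with clusters. The cause of these changes was not tested, beyond fewer samples. Gja5 shares of arterial cells were 31.9% at 2000 UMIs and 49.6% without thinning, where more UMIs are read per cell, and 18.8% to 21.7% leaving out a sample.

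Counts over all genes moved more. Leaving out a sample gave, for diet, 0 to 504 calls in endothelial cells (60 with all samples), 0 to 12 in arterial (4), 2 to 498 in capillary (32), 11 to 176 in lymphatic (39), 0 to 5 in smooth muscle (0), 0 to 4 in aortic-type (0), 0 to 19 in branch-type (9), 4 to 76 in pericytes (12), 0 to 3 in fibroblasts (8), 3 to 21 in mesothelial (13), 0 to 20 in Schwann cells (6) and 0 to 553 in macrophages (0). Other alternatives gave, in the same order, 2 to 277, 0 to 48, 13 to 368, 28 to 138, 0 to 109, 0 to 93, 9 to 82, 2 to 77, 0 to 247, 7 to 185, 1 to 84 and 0 to 31. For the diet effect between subtypes leaving out a sample gave 0 to 8 calls in endothelium (0) and 4 to 12 in smooth muscle (1).

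Replicate numbers gave no pairing: deviations of same-numbered samples correlated between -0.26 and 0.37 over 4 types. The test of arterial against Vwf-positive cells was not run, with 2 to 12 Vwf-positive cells per sample.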
